A study of Arabidopsis thaliana with 6 samples.

Results

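The genes described here are nuclear genes for proteins of the plastid ribosome. They were chosen as loci from a list of 39 nuclear genes for plastid 50S and 30S ribosomal proteins that had a probe set naming 1 gene only, and each locus was read from the probe set with the highest mean signal. Of the 39, 10 were named on the array, out of 13333 loci named in all. The other 29 are not analysed here. Of the 10, 7 belong to the large (50S) subunit out of 25 listed, and 3 are 30S genes out of 14 listed. All 10 had 1 probe set and passed the filter on dim probe sets.

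Transcript levels were measured on 6 ATH1 arrays, 2 per group, from total RNA of whole Arabidopsis thaliana seedlings with open cotyledons, a hypocotyl and a primary root. The groups were the gun1,gun5 double mutant on medium with 5 µM norflurazon, wild type Col-0 on the same medium, and Col-0 without the herbicide. Every group was kept at 23 °C, for 3 days in the dark and a further 3 days under continuous white light, and sucrose was in the medium (1.5 w/v in the labels). Norflurazon blocks carotenoid synthesis, so that chloroplasts bleach in the light. The gun (genomes uncoupled) mutants keep transcribing nuclear photosynthesis genes after such damage, and were found by that trait. The mutant alleles are not named in the labels, and an untreated mutant was not analysed here, so the effect of norflurazon within the mutant was not measured. Separate growth of the 2 samples in a group is not recorded, and where they were not grown apart, p-values rest on technical spread alone.

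Plastids translate their own small genome on ribosomes of bacterial type. The ribosomal RNAs and a share of the ribosomal proteins are encoded in the plastid, and the rest of the proteins are made in the cytosol from nuclear genes and imported, so each ribosome is built from the products of both genomes. These nuclear genes are expressed most in young green tissue, when chloroplasts are being built. The annotation used here gives the 10 genes by locus alone, and the protein names below are those under which the loci are known in Arabidopsis. Roles of single proteins are given from the bacterial ribosome, mainly that of Escherichia coli.

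Depth has no meaning for arrays, and the number of arrays limits the precision. The signals are MAS5 values on a linear scale, with array medians between 42.6 and 46.8, and the 10 genes lay between 239.8 and 2132.3. Over the 13648 probe sets tested, the log2 difference between the 2 arrays of a group had a standard deviation of 0.451 in the mutant, 0.589 in Col-0 on norflurazon and 0.271 in untreated Col-0. The ratio of 3′ to 5′ signal in control transcripts, a sign of RNA quality, could be taken from 6 pairs of probe sets, and 2 of the 6 separated the treatments. In the AFFX-Athal actin pair the ratio was 7.77 and 7.99 in the mutant, 7.66 and 8.17 in Col-0 on norflurazon, and 4.82 and 4.65 in untreated Col-0. In the AFFX-r2-At GAPDH pair it was 1.02 to 1.21 on the 4 norflurazon arrays and 0.952 to 1.003 in untreated Col-0. The other 4 pairs overlapped, among them the AFFX-r2-At actin pair, with 2.00 and 3.21 in the mutant, 1.65 and 3.63 in Col-0 on norflurazon, and 2.46 and 2.78 in untreated Col-0. The part of these ratios in the results was not tested. Of 14 markers of seedling organs 2 were named. PYK10, a beta-glucosidase of roots and hypocotyls, had signals from 3513.7 to 3558.8 in the mutant, from 2821.2 to 3487.9 in Col-0 on norflurazon and from 3345.8 to 3665.0 in untreated Col-0. The guard cell factor gene FAMA was too dim to be tested, with signals of 19.5 to 24.9 over the 4 norflurazon arrays and at least 37.2 in untreated Col-0. Its part in the results was not tested either. In whole seedlings, fewer green cells and less RNA per cell cannot be told apart.

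The first comparison asked how norflurazon changed these genes in Col-0. Their transcripts were lower on the herbicide: 7 of 10 fell, at an adjusted p under 0.05 in a limma model over all tested probe sets, where 9.85% of all probe sets fell and 18.9% changed in either direction. The median of the 10 log2 changes was -0.75, beside a median of 0.06 over all tested probe sets. Both arrays on norflurazon lay below both control arrays for all 10 genes, which was the case for 28.0% of all probe sets. Mean signals on norflurazon lay between 27.5% and 75.1% of the untreated mean, with a median of 59.3%. The 3′ to 5′ ratio of the AFFX-Athal actin pair, given above, was also higher on both norflurazon arrays than on both control arrays.

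**Figure D1:**
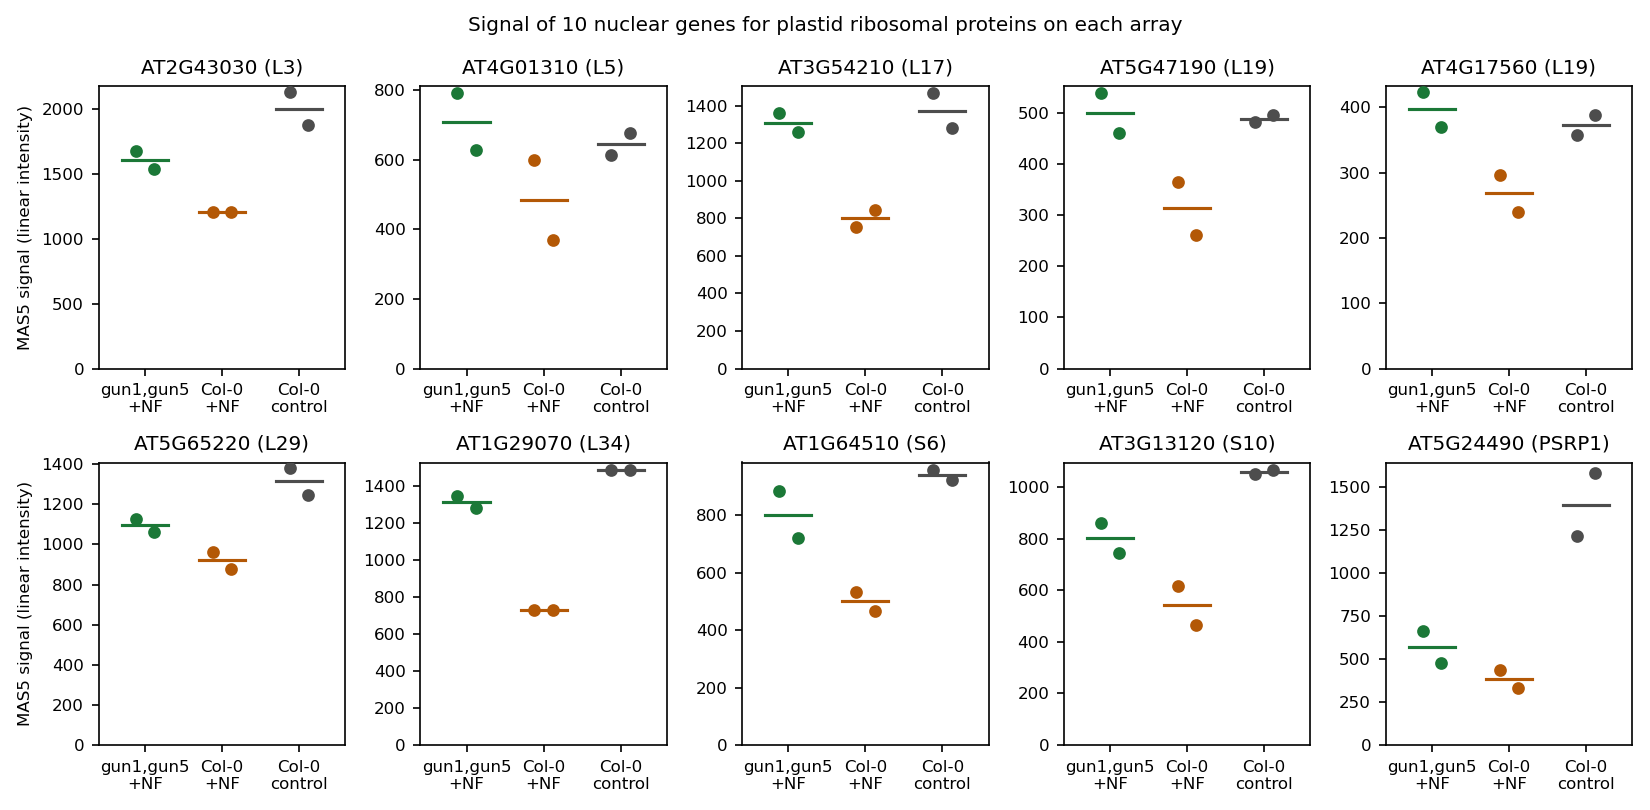
MAS5 signal (vertical axis, linear intensity, from 0) of the 10 genes on each of the 6 arrays, with 1 panel per gene. Points are single arrays (replicate 1 left, replicate 2 right), lines are means of 2 arrays, and groups run from the gun1,gun5 mutant on norflurazon (+NF) through Col-0 on norflurazon to the Col-0 control. In every panel both Col-0 arrays on norflurazon lie below the arrays of the other groups.

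Among the genes of the 30S subunit, PSRP1 (AT5G24490) had the largest log2 change of the 10. PSRP1 is a plastid relative of bacterial factors that park ribosomes in an inactive state, and it is now often counted as a translation factor and not as a structural protein. Its signals were 436.4 and 333.3 in Col-0 on norflurazon, against 1215.0 and 1578.9 in untreated Col-0. Every treated array was thus far below every control array. The log2 change was -1.86 ± 0.23 (SE, adjusted p = 0.00163), a 3.63-fold lower level, and 2.04% of all probe sets had a lower log2 change.

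S10 (AT3G13120) is a protein of the head of the small subunit, close to the bound transfer RNAs. Its signals were 617.6 and 466.5 on norflurazon, against 1050.9 and 1064.7 without it, and the groups did not overlap. The log2 change was -0.98 ± 0.18 (SE, adjusted p = 0.00914). S6 (AT1G64510) sits on the platform of the small subunit next to S18, whose plastid gene is described below. It had signals of 532.2 and 468.1 on norflurazon, against 959.8 and 922.0 in the control, again without overlap. It fell by 0.91 on the log2 scale (SE 0.17, adjusted p = 0.00874).

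Of the 7 large subunit genes 4 fell. L34 (AT1G29070), one of the smallest proteins of the large subunit, had signals of 731.9 and 729.4 on norflurazon, against 1490.9 and 1489.3 in untreated Col-0. The arrays of each group were almost equal, and the treated mean was 49.0% of the control mean. The log2 change was -1.03 ± 0.13 (SE, adjusted p = 0.00185). L17 (AT3G54210), found near the exit of the tunnel through which the new protein leaves, had signals of 754.4 and 846.4 on norflurazon, against 1470.2 and 1279.8 without it. It fell by 0.78 on the log2 scale (SE 0.15, adjusted p = 0.0104).

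L3 (AT2G43030), an early assembly protein that reaches toward the peptidyl transferase centre, had signals of 1209.6 and 1210.6 on norflurazon, against 2132.3 and 1874.2 in the control. The treated arrays were nearly the same, and the change was -0.72 ± 0.13 (SE, adjusted p = 0.0096). L29 (AT5G65220), which borders the tunnel exit, had signals of 963.1 and 878.2 on norflurazon, against 1383.0 and 1245.1 without it. Its change was the smallest of those that passed, at -0.51 ± 0.14 (SE, adjusted p = 0.0404). It did not pass when arrays were scaled to their median (adjusted p = 0.0639), quantile normalized (0.0698), tested without the filter (0.0879) or the intensity trend (0.0927), or fitted with the compared groups alone (0.0609). Of the 6 fits without 1 array it passed in 1, that without Col-0 norflurazon replicate 1, and the others gave adjusted p-values of 0.0612 to 0.304.

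The remaining 3 genes did not pass the test, although their arrays did not overlap. The 2 loci for L19, a protein at the interface of the subunits, gave similar values. AT5G47190 had signals of 365.2 and 260.3 on norflurazon, against 480.7 and 494.2 in untreated Col-0, with a log2 change of -0.66 (95% interval -1.13 to -0.19, adjusted p = 0.0576). AT4G17560 had signals of 297.1 and 239.8 on norflurazon, against 357.7 and 387.6, with a change of -0.48 (95% interval -0.90 to -0.06, adjusted p = 0.107). As paralogs for the same protein they may share signal on the array, which was not tested. L5 (AT4G01310), a binding partner of the 5S RNA, had signals of 600.9 and 369.0 on norflurazon, against 613.1 and 678.0. One treated array was thus near the control level, and the change was -0.45 (95% interval -1.02 to 0.11, adjusted p = 0.234).

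The number of calls moved most when a control array was left out. Without untreated Col-0 replicate 1 the count was 2 of 10, with 597 probe sets called in all, and without replicate 2 it was again 2 of 10, with 665 called in all, against 2581 with all arrays. The genes called without either control array were L34 and PSRP1. Without Col-0 norflurazon replicate 1 all 10 passed, with 2847 called in all, and without its replicate 2 the count was 6, with 3126 called in all. On Col-0 norflurazon replicate 1 the 10 genes had a median of -0.75 relative to the mean of the controls, and on replicate 2 it was -0.85, so the median was of like size on both arrays. The value for L5 was -0.10 on replicate 1, where it was nearest to the control of the 10 genes.

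**Figure D2:**
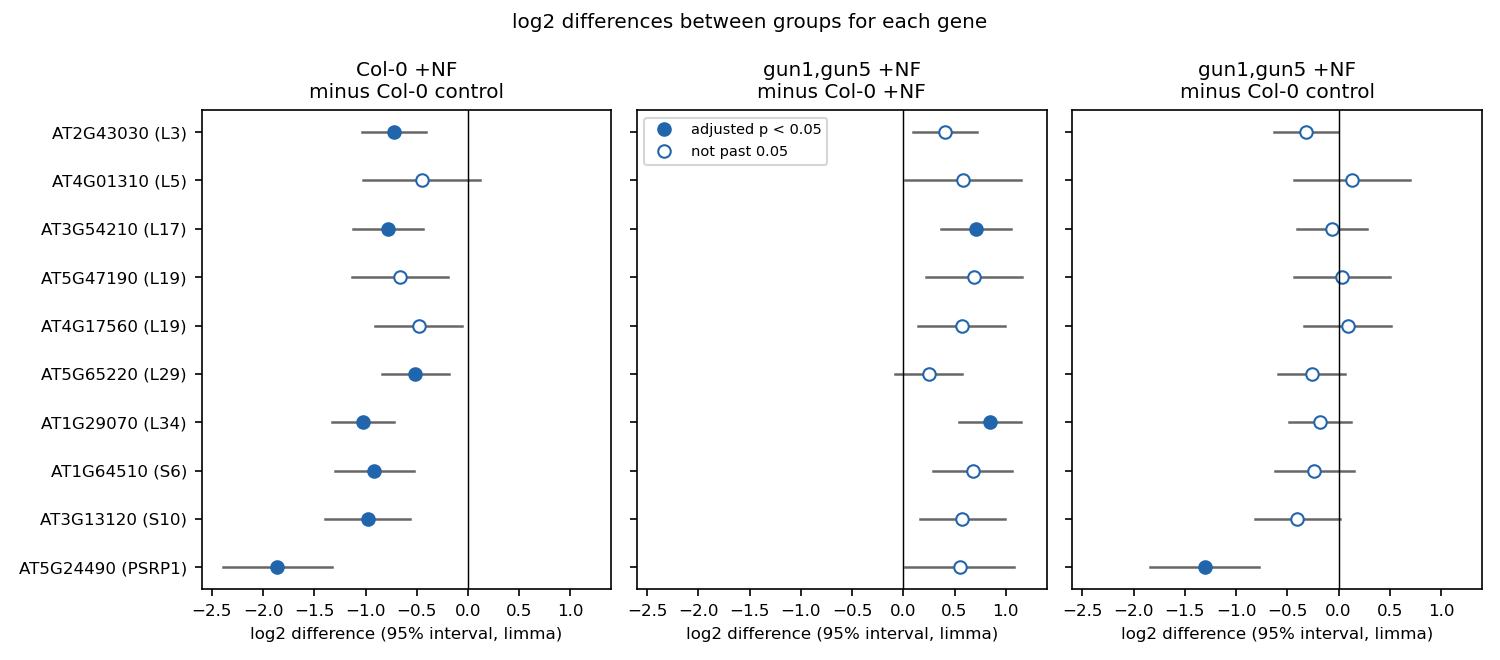
Differences of log2 signal (horizontal axis) for each of the 10 genes in the 3 comparisons named above the panels. Points are limma estimates, lines their 95% intervals, and filled points mark an adjusted p under 0.05: 7 in the left panel, 2 in the middle one and 1 in the right one.

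The second comparison asked how the gun1,gun5 mutant differed from Col-0 when both grew on norflurazon. L34 and L17 were higher in the mutant, which is 2 of 10, where 1.83% of all probe sets were higher at this threshold and 2.95% differed in either direction. The median log2 difference of the 10 genes was 0.58, beside -0.04 over all tested probe sets. For all 10 genes both mutant arrays lay above both Col-0 arrays, as they did for 17.7% of all probe sets. At an unadjusted p under 0.05 there were 9 of 10, all higher, where 7.85% of all probe sets were.

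L34 had signals of 1348.7 and 1285.4 in the mutant, against 731.9 and 729.4 in Col-0 on norflurazon. Its level was 1.80-fold higher, a log2 difference of 0.85 ± 0.13 (SE, adjusted p = 0.0169). L17 had signals of 1362.2 and 1258.9 in the mutant, against 754.4 and 846.4 in Col-0, and was higher by 0.71 ± 0.15 (SE, adjusted p = 0.0473). Neither gene overlapped between the groups. S6 had 886.0 and 719.6 in the mutant, against 532.2 and 468.1 in Col-0, a difference of 0.68 (95% interval 0.29 to 1.06) with an adjusted p of 0.0827.

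The other 7 genes had log2 differences between 0.25 and 0.69 and adjusted p-values up to 0.457. The L19 genes were at 0.69 (AT5G47190, adjusted p = 0.138) and 0.57 (AT4G17560, adjusted p = 0.172). L5 had signals of 791.2 and 628.0 in the mutant, against 600.9 and 369.0 in Col-0, so that the lower mutant array was only just above the higher Col-0 array. S10 had 858.5 and 743.6 in the mutant, against 617.6 and 466.5 in Col-0, a difference of 0.57 (95% interval 0.16 to 0.99, adjusted p = 0.163). PSRP1 had 659.8 and 474.6 in the mutant, against 436.4 and 333.3 in Col-0, a difference of 0.55 (95% interval 0.02 to 1.08, adjusted p = 0.288), which ran from 0.32 to 0.79 without 1 array. L3 differed by 0.41 (adjusted p = 0.18). L29 was nearest to Col-0 of the 10, at 0.25 (95% interval -0.08 to 0.58), with signals of 1128.8 and 1059.9 in the mutant, against 963.1 and 878.2.

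These 2 calls were less secure than those of the first comparison, except that of L29. The fit pooled the spread over 3 groups, and in a fit of the 2 compared groups alone no gene of the 10 passed (L34 at an adjusted p of 0.108, L17 at 0.175), with 101 probe sets called in all, against 402. No gene of the 10 passed without either control array, or without either mutant array, where adjusted p for L34 ran from 0.0901 to 0.101. Without Col-0 norflurazon replicate 1 the count was 4, namely L34, L5, the L19 gene AT5G47190 and S10, with 469 probe sets called in all, and L17 was not among them. The direction of the 10 differences was the same with both scalings. The other alternatives could not turn it, since no gene of the 10 overlapped between these groups. In the mutant, all 10 genes had a higher signal on replicate 1 than on replicate 2, by 0.07 to 0.48 on the log2 scale, with a median of 0.20, where the median over all tested probe sets was -0.0096. In Col-0 on norflurazon 8 of 10 were higher on replicate 1, with a median of 0.25, against -0.081 over all tested probe sets. In both norflurazon groups, the 3′ to 5′ ratio of every control pair was lower on replicate 1 than on replicate 2. For the AFFX-Athal GAPDH pair it was 1.50 and 2.30 in the mutant, and 0.97 and 2.54 in Col-0 on norflurazon. Among the pairs in untreated Col-0 both directions occurred. The part of RNA quality, growth or labelling in the differences between replicates was not tested.

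The third comparison placed the treated mutant against untreated Col-0. Genotype and treatment both differ in it, and it shares its arrays with the other comparisons. PSRP1 was lower, and it was the 1 gene of the 10 past the threshold, where 10.3% of all probe sets were lower and 18.8% differed in either direction. At an unadjusted p under 0.05 there were 2 of 10, L3 and PSRP1, where 17.2% of all probe sets were lower. The median of the 10 log2 differences was -0.21, beside 0.01 over all tested probe sets. Mean signals in the mutant lay between 40.6% and 110% of the untreated Col-0 mean, with a median of 86.9%.

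PSRP1 had signals of 659.8 and 474.6 in the treated mutant, against 1215.0 and 1578.9 in untreated Col-0, a log2 difference of -1.31 ± 0.23 (SE, adjusted p = 0.00859). The groups were far apart, and the level was 2.47-fold lower. It did not pass without mutant replicate 2 (-1.07, adjusted p = 0.0585) or without untreated Col-0 replicate 1 (-1.50, adjusted p = 0.0537) or replicate 2 (-1.12, adjusted p = 0.1). S10, the next lowest, was at -0.40 (95% interval -0.82 to 0.01, adjusted p = 0.154), and L3 at -0.32 (95% interval -0.63 to -0.0054, adjusted p = 0.139).

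For 6 genes, L3, L29, L34, S6, S10 and PSRP1, both mutant arrays lay below both untreated Col-0 arrays, which held for 33.6% of all probe sets. For L5, L17 and both L19 genes the arrays overlapped. L17 had signals of 1362.2 and 1258.9 in the mutant, against 1470.2 and 1279.8 in untreated Col-0, a difference of -0.07 (95% interval -0.41 to 0.27) whose sign turned with median scaling. The L19 gene AT5G47190 had 537.9 and 460.6 in the mutant, against 480.7 and 494.2, a difference of 0.03 (95% interval -0.44 to 0.50). The interval of the other L19 gene, AT4G17560, was -0.33 to 0.51 and that of L5 was -0.44 to 0.70, so equal levels were not shown.

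**Figure D3:**
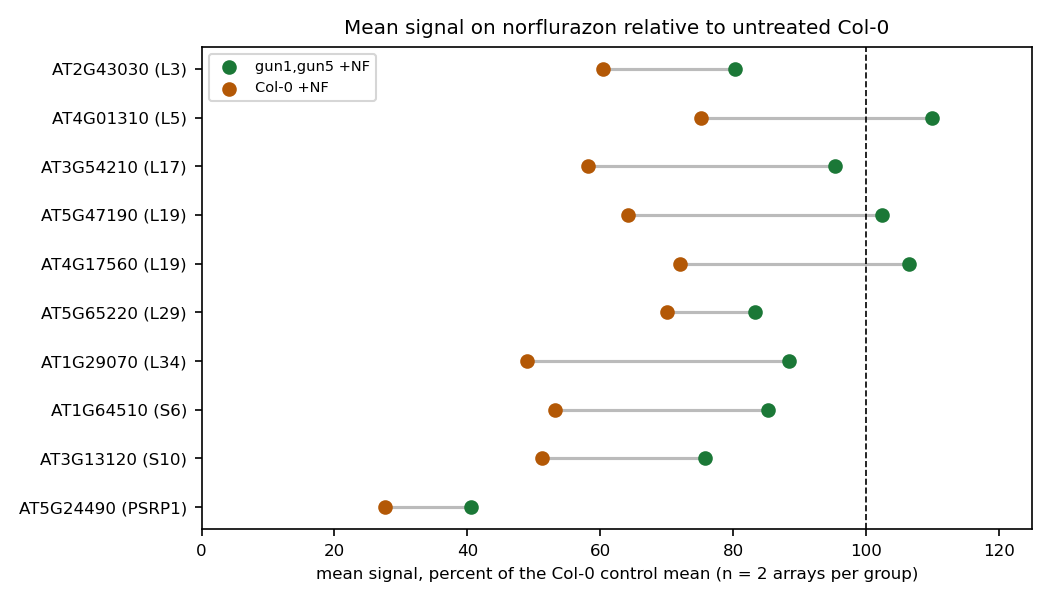
Mean signal of each gene (n = 2 arrays per group) as a percent of the untreated Col-0 mean (dashed line at 100), for the gun1,gun5 mutant and Col-0, both on norflurazon. Mutant points lie between 40.6% and 110% and Col-0 points between 27.5% and 75.1%; PSRP1 is lowest in both groups.

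The order of the levels was therefore the same for L3, L29, L34, S6, S10 and PSRP1, which is 6 of 10, where 6.07% of all probe sets had this order. Col-0 on norflurazon was lowest, the mutant on norflurazon was between, and untreated Col-0 was highest, with no overlap between neighbours. Over the 6 arrays, the log2 signals of the 10 genes correlated with each other at a median Pearson r of 0.889 over 45 pairs, with a range from 0.554 to 0.988. These correlations describe 6 arrays in 3 groups and hold the differences between groups and those within them together. S6 (r = 0.993) and S10 (r = 0.986) were nearest to the mean of the other 9 genes, and L5 (r = 0.748) and PSRP1 (r = 0.834) were farthest. Outside the list, the 5 loci of 7243 compared whose log2 profiles were most like the mean of the 10 were AT3G10060, AT1G22630, AT1G67280, AT2G27680 and AT5G16140, with r from 0.993 to 0.996. AT3G10060 differed in size, with a log2 change of -2.26 in Col-0 on norflurazon, while AT1G67280 was at -0.64.

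Genes that act beside the plastid ribosome were read in the same fits. Of 11 listed nuclear genes for plastid translation factors 4 were named, all for initiation factors. In Col-0 on norflurazon 4 of 4 fell, where 9.85% of all probe sets fell. FUG1, initiation factor 2, which brings the initiator transfer RNA to the small subunit, had signals of 347.9 and 351.3 on norflurazon, against 846.9 and 711.8 in the control (-1.15, adjusted p = 0.00446). In the mutant it had 828.7 and 663.6 and was higher than in Col-0 on norflurazon by 1.08 (adjusted p = 0.021). It was the 1 of 4 that passed, where 1.83% of all probe sets were higher. The 2 initiation factor 3 genes, AT2G24060 and AT4G30690, and the initiation factor 1 gene AT4G11175 had changes of -0.84, -0.76 and -0.89 in Col-0 on norflurazon, and differences of 0.82, 0.40 and 0.51 between mutant and Col-0.

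Of 15 genes for assembly of the plastid ribosome and processing of its RNA 3 were named, and 0 passed limma in any of the 3 comparisons. At an unadjusted p under 0.05, 1 of the 3 was higher in the mutant than in Col-0 on norflurazon, as 7.85% of all probe sets were. None of the 3 differed at that threshold in the other comparisons. RH39, an RNA helicase that acts on 23S ribosomal RNA, gave 92.2 and 45.9 in Col-0 on norflurazon, against 34.8 and 41.0 in the control (adjusted p = 0.181). The endonuclease gene SOT1 had 291.8 and 256.9 in the mutant, against 157.7 and 215.4 in Col-0 on norflurazon (0.57, adjusted p = 0.216). Of 18 genes listed as plastid aminoacyl-tRNA synthetases 2 were named. One of them, AT4G33760, for a plastid aspartyl-tRNA synthetase, had 112.2 and 125.8 in the mutant, 86.1 and 112.4 in Col-0 on norflurazon, and 84.4 and 76.5 in untreated Col-0, and it passed in none of the 3 comparisons (adjusted p = 0.362 for norflurazon in Col-0). The other, ALATS (AT1G50200), is known for the alanyl-tRNA synthetase of the cytosol and mitochondria and not of the plastid. It was higher in the treated mutant, with 768.5 and 880.1, than in untreated Col-0, with 570.1 and 524.6, by 0.59 (adjusted p = 0.0414), as 8.55% of all probe sets were.

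The partner proteins of the same ribosome encoded in the plastid genome were represented by 14 tested transcripts of 21 listed. In Col-0 on norflurazon 10 of 14 fell, with a median of -1.15, where 9.85% of all probe sets fell. Between the mutant and Col-0 on norflurazon the median was -0.46 and the 14 values ran from -0.95 to -0.15, while the 10 nuclear genes ran from 0.25 to 0.85, so the ranges did not overlap. One plastid transcript, rps16, was lower in the mutant, with signals of 36.3 and 43.9, against 80.6 and 73.7 in Col-0 on norflurazon (-0.95, adjusted p = 0.0452), and it did not pass with arrays scaled to their median or quantile normalized, where the count was 0 of 14. Of all probe sets 1.11% were lower in this comparison. At an unadjusted limma p under 0.05, 7 of 14 plastid transcripts were lower and 0 higher, where 8.37% of all probe sets were lower. The transcript for S18, rps18, had signals of 231.5 and 305.7 in the mutant, against 387.9 and 398.1 in Col-0 on norflurazon (-0.56, adjusted p = 0.176), where that for its neighbour S6 was at 0.68. The rps2 transcript fell most in Col-0, with signals of 341.3 and 265.2 on norflurazon, against 1278.3 and 1143.9 in the control (-2.01, adjusted p = 0.000448). Plastid transcripts mostly lack the poly(A) tails of nuclear ones, as does 25S ribosomal RNA. The control probe set for 25S reached 115.6 in the mutant, 2511.1 in Col-0 on norflurazon (replicate 1, against 8.2 on replicate 2) and 15.2 in untreated Col-0. Its part in the values of plastid transcripts or of the 10 nuclear genes was not tested, nor was the difference between the lists.

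Nuclear genes for photosynthesis moved in the same directions with larger medians, and the ranges overlapped. All 10 tested of 43 listed fell in Col-0 on norflurazon, where 9.85% of all probe sets fell. Their median was -2.28 and their range from -4.25 to -1.27, beside -1.86 to -0.45 for the plastid ribosomal proteins. The overlap in Col-0 came from PSRP1 alone, as the next lowest plastid ribosomal protein gene, L34, was at -1.03. In the mutant 8 of 10 were higher than in Col-0 on norflurazon, where 1.83% of all probe sets were. The median of the 10 was 1.26 and their range from 0.59 to 2.49, beside 0.25 to 0.85 for the plastid ribosomal proteins. The 2 with the largest values in Col-0 were LHCB4.2, an antenna protein gene, at -4.25, and PSAE-1, a photosystem I subunit gene, at -3.73. In the mutant, PSAE-1 was at 2.49 and LHCB4.2 at 2.23. The value for PSRP1 in Col-0 lay between those of the antenna gene LHCB4.1, at -1.89, and the ATP synthase gene ATPC1, at -1.85.

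Most genes for ribosomal proteins of the cytosol, 111 of 115, had values above 0 in Col-0 on norflurazon. The median over all tested probe sets was also above 0, at 0.06. Of these 115 tested genes, out of 211 listed, 50 rose and 0 fell, with a median of 0.50, where 9.06% of all probe sets rose. The 4 below 0 were AT5G15520, AT1G26880, AT2G16360 and AT4G25890, at -0.32 to -0.07. AT4G39200, for a small subunit protein, had signals of 2070.8 and 1690.0 on norflurazon, against 607.4 and 576.1 in the control (1.66, adjusted p = 0.000987). Under the other scalings 57 and 68 rose, and 0 fell. Between the mutant and Col-0 on norflurazon 0 of 115 passed limma, 1 was higher and 0 lower at an unadjusted p under 0.05 (8.37% of all probe sets were lower), and the median was 0.02. In the treated mutant against untreated Col-0, 14 of 14 plastid-encoded ribosomal protein transcripts and 10 of 10 photosynthesis genes were lower. Of all probe sets 10.3% were lower and 8.55% higher in this comparison. Of the cytosolic ribosomal protein genes 56 of 115 were higher. Of the initiation factor genes 0 of 4 passed limma, also at an unadjusted p under 0.05. Differences between these lists were not tested.

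**Figure D4:**
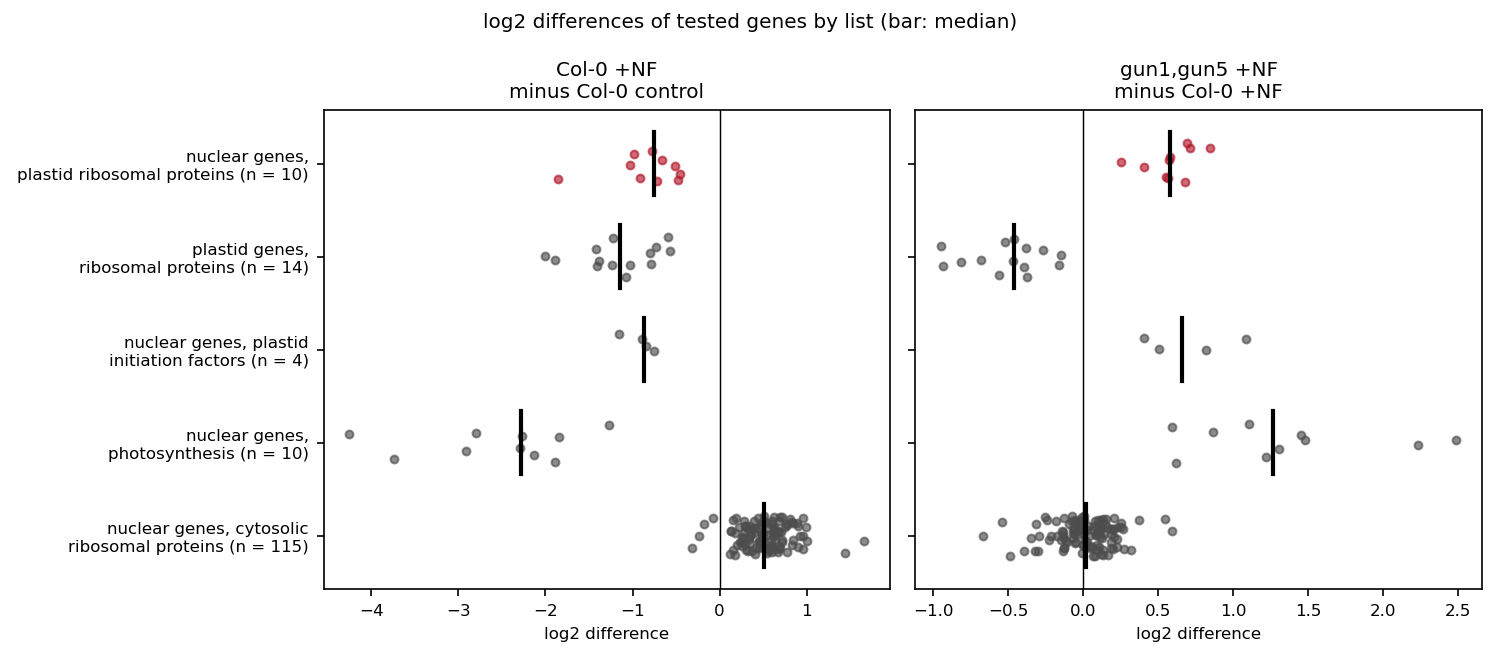
Differences of log2 signal (horizontal axis) of single tested genes in 5 lists, for Col-0 on norflurazon minus the Col-0 control (left) and the gun1,gun5 mutant minus Col-0, both on norflurazon (right). Points are genes and black bars list medians. The 10 nuclear genes for plastid ribosomal proteins (red) lie below 0 on the left and above 0 on the right, and the 14 plastid-encoded ones lie below 0 in both panels.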

How the data were processed

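The authors deposited 1 linear intensity per probe set and array. MAS5 is the tool named, per the submitters' processing notes, with no version. After trimming 2% of signals at each end, array means were 99.6 to 99.9, which shows a common scaling before deposit, and this scaling was kept. Detection calls were not used here. Groups and replicate numbers came from the sample labels.

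From the 22810 probe sets of an array, 64 controls were dropped. Signals became log2(signal + 0.05), where 0.1 was the smallest signal above 0. Probe sets with a mean log2 signal at or above the 40th percentile, a signal of 27.6, were tested, which left 13648. In limma (3.58.1, under R 4.3.3), lmFit estimated 1 mean for each group from the 6 arrays together, and eBayes used an intensity trend, with 3 residual and 4.89 prior degrees of freedom. P-values are two-sided and were adjusted by the Benjamini-Hochberg method over all tested probe sets, at 0.05. Adjusted p-values come from this model, and log2 differences are on this scale, except where an alternative is named. For an alternative the model was refitted. The script was tested on simulated arrays.

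Gene names came from the platform annotation, updated with RefSeq's TAIR10.1 gene table. A single gene was named by 13513 probe sets and several genes by 503; the remaining 8794 have no name here. The members and lists were chosen with earlier results of these data known. A rule on gene synonyms named 0 cytosolic and 0 mitochondrial ribosomal protein genes on the array, so a hand-written cytosolic list was added afterwards. All 10 member loci are named. From each other list a set rule took, per comparison, the 2 called genes of largest change, or the gene of smallest p where none was called. The text does not give all of these, and some other list members were named after their values were seen. Likeness is Pearson r to the mean profile, for 5 loci. Protein and promoter sequences were not used here. Alternatives were 2 scalings, a pseudocount of 16, a filter at the 60th percentile or none, no intensity trend, the replicate block, the compared groups alone, the other probe set of a locus, and leaving out each array.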

Additional observations from a re-analysis of the deposited data

How the results depend on the processing

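Signal over background was not measured here, and 2 arrays per group limit the precision. L34 and PSRP1 fell in Col-0 on norflurazon under all 15 alternatives. In the first 2 comparisons all 10 genes kept their direction with both scalings. The other alternatives could not turn it there, since no gene of the 10 overlapped between those groups. Over 15 alternatives in the third comparison, 5 values changed sign, none of them past the threshold. L17 (AT3G54210) was at 0.045 with median scaling, and without 1 array it ran from -0.17 to 0.033. Without 1 array L5 (AT4G01310) ran from -0.038 to 0.30. The L19 genes ran from -0.082 to 0.14 (AT5G47190) and from -0.0091 to 0.19 (AT4G17560). L17 turned without untreated Col-0 replicate 1 and the other 3 without mutant replicate 1. For norflurazon in Col-0 the median of the 10 genes was -0.67 with quantile normalization, and without 1 array it ran from -0.85 to -0.68, the count of genes that fell from 2 to 10 and the count of all calls from 597 to 3126. For the mutant against Col-0 on norflurazon, 1 gene of the 10 was higher with quantile normalization and 0 with no filter (235 calls in all), without the intensity trend or with the compared groups alone (101 calls in all). Without 1 array the count ran from 0 to 4, the median from 0.41 to 0.76 and the count of all calls from 78 to 764. For the treated mutant against untreated Col-0, the median was -0.10 with median scaling, which moved the median of all tested probe sets to 0.12, against 0.01, and 4003 probe sets were called with the compared groups alone, against 2571. Without 1 array the median ran from -0.26 to -0.12, the count of the 10 genes from 0 to 1 and the count of all calls from 362 to 4023. With the lowest probe set per locus nothing moved, since each of the 10 loci has 1. Causes of these shifts were not tested. The replicate numbers are shared by the groups, but nothing says that a number marks a shared planting. Replicate deviations correlated at 0.451 for the mutant with Col-0 on norflurazon, and at 0.0799 and 0.0713 for these groups with the controls. With the replicate block 8, 3 and 1 of the 10 genes passed in the 3 comparisons, with 3195, 591 and 3190 calls in all. The genes gained were the L19 gene AT5G47190 in the first (adjusted p = 0.0345) and S6 in the second (adjusted p = 0.048).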
